A study of Mus musculus with 8 samples.

Results

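The 31 genes described here encode the enzymes that make cholesterol, the proteins that sense it, and those that take it up, move it and export it. They were chosen by symbol from 18022 genes in a table of read counts from mouse subcutaneous fat, and all 31 were found and passed the filter on low counts. They fall into 16 synthesis enzymes and 15 other genes. Poly(A) RNA was sequenced in 8 libraries, each from 1 mouse of the strain C57BL/6J, back-crossed 4 times per the labels. The 4 libraries labelled WT came from mice with the genotype Pkd1(flox/flox), the floxed controls, and the 4 labelled KO from mice with the genotype Pkd1adipo delta/delta, in which the floxed gene is deleted in adipocytes. The labels' Pkd1 stands for the kinase PKD1, listed among the genes as Prkd1. The sources used here do not give the driver of the deletion, the exons removed, or the age, sex and diet of the mice. A library is named by its label and replicate number, as in KO3. Levels are CPM, the reads of a gene as a share of its library's reads on the usual counts-per-million scale, after TMM scaling between libraries.

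Cells make cholesterol from acetyl-CoA through mevalonate, farnesyl diphosphate, squalene and lanosterol. When sterols in the endoplasmic reticulum run low, the chaperone SCAP carries the transcription factor SREBP2 to the Golgi, where it is cut and then turns on the genes of nearly every step. When sterols are abundant, INSIG proteins hold SCAP back, and oxysterols activate the nuclear receptors LXR alpha and LXR beta, which turn on the exporters ABCA1 and ABCG1. Adipocytes hold much of their cholesterol unesterified in the droplet surface and in membranes, and fat is one of the larger cholesterol stores of the body. The comparison asks whether genes of either arm differ in fat between the deletion and its floxed control.

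The libraries held between 2617755 and 2873457 reads. Adipocyte markers such as Adipoq and Plin1 were abundant in all of them, with sums over 12 markers of 27100 to 30760 CPM in WT and 27730 to 31960 CPM in KO. The targeted gene Prkd1 did not separate the labels, at 30.1 ± 3.19 CPM in WT and 31.4 ± 4.68 CPM in KO (SD, n = 4 each; log2 fold change 0.06 ± 0.15, SE). The counts cover the whole gene in the whole tissue and so do not check the labels; every difference given is that of KO-labelled minus WT-labelled libraries. All 19 skeletal muscle markers had positive log2 fold changes (median 2.8). Their sum lay between 77.9 and 515 CPM in WT. It stood at 3485, 2169 and 3879 CPM in KO1, KO2 and KO4, and at 368 CPM in KO3. The summed liver markers were 1653 and 1455 CPM in WT1 and WT4, 579 CPM in KO2, and between 111 and 248.9 CPM in the other libraries.

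Upstream sequences of 4 members are shown because their counts carry the contrast described further on: 2 enzymes and the feedback gene Insig1, which differed several-fold between mice, and Abca1, which did not. They are from RefSeq, build GRCm38.p6, read 5′ to 3′ on the strand of the gene, and end before the first exon base of the gene in the annotation. Capitals mark matches on either strand to the SREBP site TCACNCCAC, the CCAAT box (CCAAT, or ATTGG on the other strand) bound by NF-Y, a partner of SREBP2, and the E-box CACGTG. The windows are chr13:119690101-119690350 (plus strand) for Hmgcs1, chr1:169969242-169969455 (minus strand) for Hsd17b7, chr5:28071162-28071362 (plus strand) for Insig1 and chr4:53159896-53160145 (minus strand) for Abca1.
Hmgcs1: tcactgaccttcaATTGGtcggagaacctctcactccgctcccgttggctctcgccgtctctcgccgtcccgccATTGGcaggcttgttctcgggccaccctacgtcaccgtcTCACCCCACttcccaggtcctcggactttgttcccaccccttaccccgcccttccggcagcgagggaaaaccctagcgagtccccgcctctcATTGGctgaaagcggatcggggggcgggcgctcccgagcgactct
Hsd17b7: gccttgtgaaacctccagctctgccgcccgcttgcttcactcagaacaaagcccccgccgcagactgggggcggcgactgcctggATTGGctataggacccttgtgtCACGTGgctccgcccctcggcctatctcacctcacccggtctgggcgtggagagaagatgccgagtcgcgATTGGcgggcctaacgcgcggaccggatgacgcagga
Insig1: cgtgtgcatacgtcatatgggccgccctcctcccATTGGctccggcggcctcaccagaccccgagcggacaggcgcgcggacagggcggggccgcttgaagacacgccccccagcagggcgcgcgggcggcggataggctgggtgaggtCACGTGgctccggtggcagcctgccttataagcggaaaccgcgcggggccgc
Abca1: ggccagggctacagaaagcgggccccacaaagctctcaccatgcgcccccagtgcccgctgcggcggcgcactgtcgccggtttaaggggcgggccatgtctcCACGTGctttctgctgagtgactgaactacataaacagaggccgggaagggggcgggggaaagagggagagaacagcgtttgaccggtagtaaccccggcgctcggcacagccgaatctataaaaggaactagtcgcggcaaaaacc
The Hmgcs1 window holds 1 SREBP site, whose first base lies 137 bases before the start, and 3 CCAAT boxes. The Hsd17b7 window holds 2 CCAAT boxes and 1 E-box, the Insig1 window 1 of each, and the Abca1 window 1 E-box. RefSeq windows were at hand for 24 of the 31 members, and not for Fdps, Fdft1, Sqle, Stard4, Npc1, Abcg1 and Scarb1. Over the 250 bases before the start, a CCAAT box stood in 58.1% of the members' 31 windows (a gene can have several) and in 33.8% of all 32851 windows of that length. Counted by gene, 12 of 13 synthesis enzymes had one in at least 1 of their windows. The share of all genes by that count was not taken, and the 33.8% is a share of windows. An SREBP site stood in 1 of the 31 windows (3.23%), that of Hmgcs1, and in 1.05% of all windows. Only the string TCACNCCAC was searched, so SREBP sites with other letters would be missed. An E-box stood in 5 of the 31 (16.1%) and in 6.02% of all windows. The LXR direct repeat was searched on both strands like the other motifs, and only as a perfect repeat with no mismatch allowed. It stood in none of the members' windows and in 5 of all 32851 windows (0.0152%). A string so rare would hardly be met in 31 windows, and imperfect repeats would be missed. Its absence therefore does not show that a window, that of Abca1 included, lacks an LXR site. A match is a description of letters in a window and shows no binding.

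Of the 16 synthesis enzymes, all but Tm7sf2 and Ebp had a difference between labels smaller than their standard deviation (log2 CPM) between mice of 1 label. For Tm7sf2 and Ebp that standard deviation, 0.16 and 0.15, was below the 0.26 and 0.19 that counting of reads alone gives. Their small spread is therefore not evidence of close agreement between mice. Hmgcs1, the enzyme that commits acetoacetyl-CoA to the pathway, ranged 3.45-fold over the 8 libraries, Lss, the cyclase that forms lanosterol, 4.61-fold, and Hsd17b7, a sterol ketone reductase, 4.52-fold. KO1 and KO4, which carry the same label, stood at the opposite ends. KO1 had the lowest value of 13 of the 16 enzymes, while it was lowest for 13.6% of the 14556 genes tested. KO4 had the highest value of 9 of the 16, while it was highest for 12% of the genes tested, and WT3 had the highest of 4. None of the 16 passed the test between labels, and 12 of them had negative log2 fold changes, beside 49.9% of the genes tested. Their median log2 fold change was -0.21, and that of all genes tested 0.00032.

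**Figure D1:**
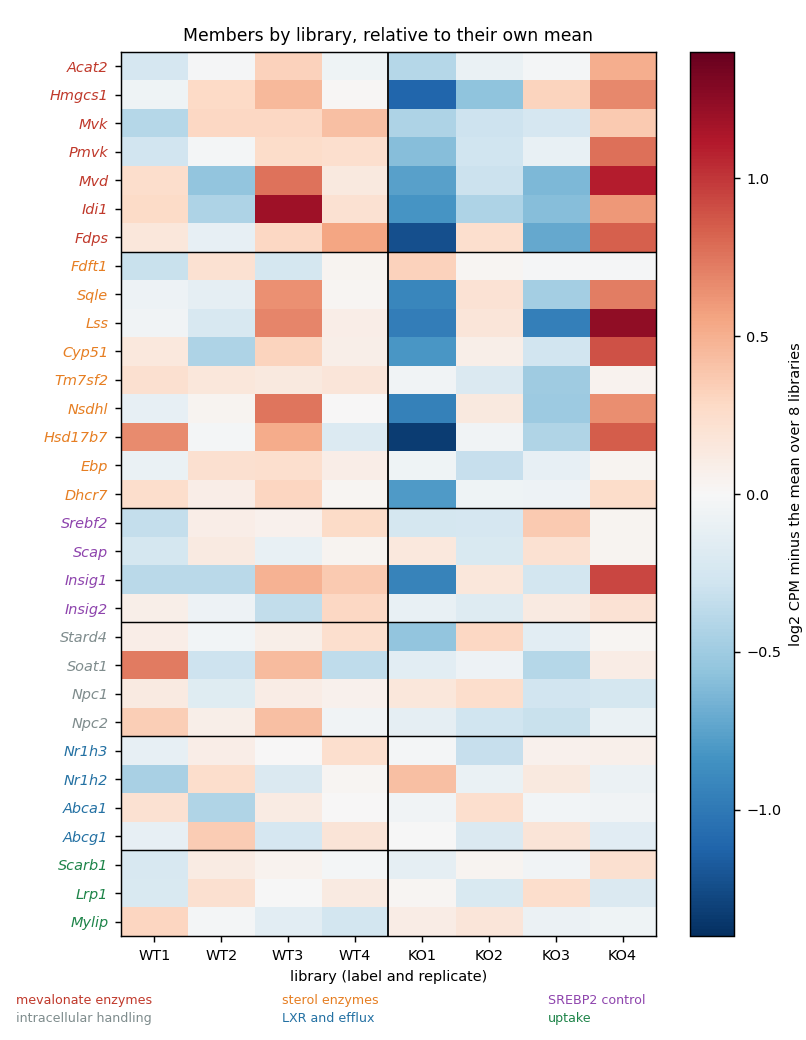
Heat map of the 31 members (rows, coloured and ordered by role) in the 8 libraries (columns), as log2 CPM minus the member's mean over the libraries. Most enzyme rows and Insig1 are blue in KO1 and red in WT3 and KO4, whereas rows of the LXR, efflux and uptake genes are paler.

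All 7 enzymes from acetyl-CoA to farnesyl diphosphate were lowest in KO1, and all but Mvk and Idi1 were highest in KO4. Hmgcs1 (ENSMUSG00000079301) stood at 152, 192, 217 and 160 CPM in WT1 to WT4 and at 73.4, 107, 196 and 253 CPM in KO1 to KO4. The WT values lay inside the range of the KO values, and the log2 fold change was -0.20 ± 0.37 (SE). A second identifier with the symbol Hmgcs1, ENSMUSG00000079828, held nearly as many reads, 212 in KO1 and 742 in KO4 against 201 and 716. How reads were shared between the 2 is not given, so the level of Hmgcs1 is uncertain. Acat2, the thiolase that makes acetoacetyl-CoA in the cytosol, ranged from 57.3 CPM in KO1 to 108 CPM in KO4, with a log2 fold change of 0.02 ± 0.18, the highest of this arm. Its WT values were 64.5, 75.1, 94.7 and 72.8 CPM, and KO2 and KO3 stood at 71.2 and 74.1 CPM, so the groups overlapped.

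Idi1, which isomerises isopentenyl diphosphate, had the most negative value of all members, at -0.62 ± 0.41 (unadjusted p = 0.164, adjusted p = 0.998 in edgeR's quasi-likelihood test). Its CPM was 28.1, 17.4, 53.2 and 27.2 in WT1 to WT4 and 13.2, 17.4, 15.5 and 35.8 in KO1 to KO4. The groups overlapped, and WT3 and KO4 were the highest of their labels. The log2 fold change was -0.24 without WT3, -1.0 without KO4 and -1.3 ± 0.55 with the muscle markers as a covariate. Mvk, mevalonate kinase, had 16.4, 26.5, 26.6 and 29.0 CPM in WT and 16.1, 17.7, 18.4 and 28.0 CPM in KO, with a log2 fold change of -0.30 ± 0.22. Here KO4 stood with WT2 to WT4, and WT1 with KO1 to KO3. The kinase and the decarboxylase that follow, Pmvk and Mvd, had log2 fold changes of -0.02 ± 0.27 and -0.15 ± 0.42. Pmvk reached 98.4 CPM in KO4 and 38.0 CPM in KO1. Mvd, at 15 to 56 reads the least counted of this arm, reached 19.8 CPM in KO4 and 5.48 CPM in KO1. Fdps, farnesyl diphosphate synthase, lay between 16.6 and 26.4 CPM in WT and had 7.67, 21.1, 10.9 and 32.2 CPM in KO (-0.24 ± 0.38). KO1 and KO3 were below every WT library, KO2 was among them and KO4 above.

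Of the 9 enzymes from squalene to cholesterol, 5 ranged more than 3-fold over the libraries. Lss had 51.0, 45.1, 84.5 and 56.1 CPM in WT1 to WT4 and 27.0, 59.3, 27.2 and 125 CPM in KO1 to KO4. KO1 and KO3 were below every WT library and KO4 above every one, and the log2 fold change was 0.01 ± 0.54. A small part of the Lss exon bases, 3.53% in the GENCODE M21 annotation, lies opposite the antisense gene 4930483K19Rik. The reads of that gene (60 to 267 per library in all) cannot be told from those of Lss where the 2 overlap. Sqle, squalene epoxidase and a rate-controlling step, ranged from 10.96 CPM in KO1 to 34.0 CPM in KO4, with 32.3 CPM in WT3 and 18.97 to 21.0 CPM in the other WT libraries. Cyp51, lanosterol demethylase, ranged from 15.7 CPM in KO1 to 51.3 CPM in KO4, and Nsdhl, a sterol dehydrogenase, from 23.4 CPM in KO1 to 75.9 CPM in WT3. Hsd17b7 had 6.57 CPM in KO1, from 18 reads, and 29.7 CPM in KO4. The log2 fold changes of these 4 were between -0.32 (Hsd17b7) and 0.05 (Cyp51), with standard errors of 0.32 to 0.39. Of the Cyp51 exon bases, 3.76% lie opposite exons of Akap9 (121 to 266 reads per library), where reads cannot be told apart either. Dhcr7, which performs the last reduction to cholesterol, had 23.3, 20.9, 24.1 and 19.9 CPM in WT and 11.3, 18.7, 18.7 and 23.4 CPM in KO (-0.29 ± 0.20). KO1 was low, and the other KO libraries lay near or inside the WT range.

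Fdft1, Tm7sf2 and Ebp stood apart from the other sterol enzymes. Fdft1, squalene synthase, was highest in KO1, at 66.5 CPM, where most of the other enzymes were lowest. It had 42.6, 61.6, 44.7 and 54.3 CPM in WT and 53.8, 52.3 and 52.4 CPM in KO2 to KO4 (log2 fold change 0.15 ± 0.15). In the GENCODE M21 annotation, 18.3% of the Fdft1 exon bases lie opposite exons of Ctsb, a lysosomal protease with 3452 to 4388 reads per library against 117 to 182 for Fdft1. The kit does not mark strand, so Fdft1 counts are uncertain, and the part of Ctsb reads in them was not tested. Tm7sf2, a sterol reductase, had 12.8, 12.3, 12.1 and 12.3 CPM in WT1 to WT4 and 10.6, 9.54, 7.77 and 11.3 CPM in KO1 to KO4. The groups did not overlap, but the values rest on 22 to 35 reads and the log2 fold change of -0.33 ± 0.19 had an unadjusted p of 0.107 (adjusted p = 0.998, edgeR). Ebp, the sterol isomerase, had 20.04, 24.9, 25.2 and 22.8 CPM in WT and 20.5, 17.0, 19.8 and 21.9 CPM in KO (-0.23 ± 0.15). Its 2 lowest values, KO2 and KO3, were in KO, and the groups overlapped through WT1.

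The genes that control SREBP2 did not share one pattern. Insig1, itself a target of SREBP2, was lowest and highest in the same libraries as most enzymes. It had 395, 393, 718.5 and 660 CPM in WT1 to WT4 and 268, 569, 428 and 976.5 CPM in KO1 to KO4. The range was 3.64-fold, from KO1 to KO4, and the log2 fold change between labels was 0.05 ± 0.40. Leaving out KO4 gave -0.36 and leaving out KO1 gave 0.28. Insig2, the second retention protein, had 63.4, 56.9, 47.2 and 72.8 CPM in WT and 55.5, 52.8, 65.0 and 68.7 CPM in KO (0.01 ± 0.15), a range of 1.54-fold with neither KO1 nor KO4 at an end. Srebf2, which encodes SREBP2, had 50.7, 67.6, 66.4 and 76.4 CPM in WT and 53.7, 53.8, 81.9 and 65.1 CPM in KO (-0.04 ± 0.16). It was highest in KO3, where Lss, Fdps and Mvd had their next to lowest values. Scap, the chaperone, had 38.3, 49.4, 42.2 and 46.4 CPM in WT and 50.0, 39.2, 52.6 and 46.4 CPM in KO (0.09 ± 0.14), again with overlapping groups.

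The mean of the LXR genes differed less between mice than that of the enzymes. The mean log2 CPM of the 16 enzymes ranged over 1.24 from KO1 (4.27) to KO4 (5.51), with 4.94, 4.89, 5.34 and 5.04 in WT1 to WT4 and 4.82 and 4.61 in KO2 and KO3. The mean of Abca1, Abcg1, Mylip and Nr1h3, 4 genes that LXR activates, ranged over 0.14 and lay between 6.57 (WT3) and 6.70 (WT1). Singly these 4 genes ranged over 0.55 to 0.66, with opposite extremes for Abca1 and Abcg1 in WT2. Their standard deviations within a label, 0.17 (Nr1h3) to 0.23 (Abcg1), were below the median of all genes tested (0.25). Within a label, the enzyme mean had a standard deviation of 0.20 in WT and 0.52 in KO, and the LXR mean one of 0.06 and 0.04 (n = 4 each). The KO minus WT difference was -0.25 for the enzymes and -0.02 for the LXR genes, each below the pooled standard deviation within a label (0.40 and 0.05). The difference of the 2 means was -1.59 ± 0.25 in WT and -1.82 ± 0.55 in KO (SD, n = 4 each). No test was made of these means, because their members were chosen with results known.

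**Figure D2:**
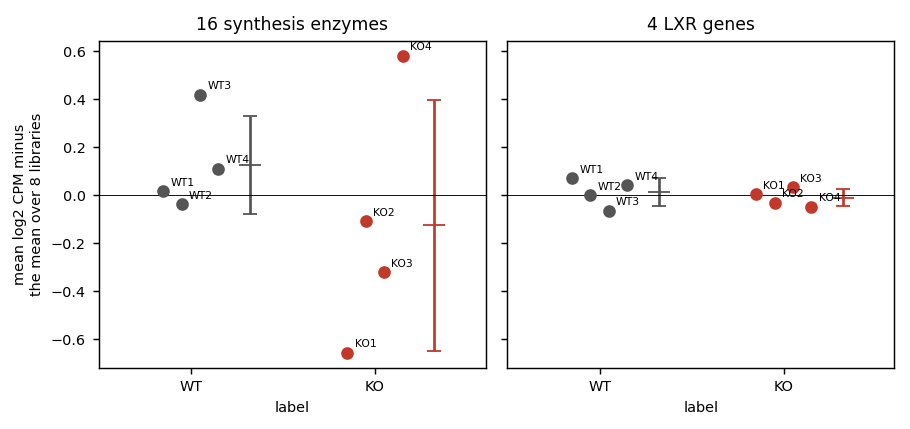
Mean log2 CPM of the 16 synthesis enzymes (left) and of the 4 LXR genes (right) in each library, minus the mean over the 8 libraries; points are libraries, bars beside them the mean and SD of each label. The enzyme means spread over 1.24 with KO1 and KO4 at the ends, and the LXR means over 0.14.

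Abca1, which loads cholesterol onto apolipoprotein A-I, had 345, 223, 323 and 298 CPM in WT1 to WT4 and 287, 351, 292 and 289 CPM in KO1 to KO4 (0.04 ± 0.15). WT2 was the lowest library and KO2 the highest, and the other libraries overlapped. Abcg1, which exports cholesterol to high-density lipoprotein, had 62.7, 86.9, 57.8 and 77.1 CPM in WT and 67.9, 59.0, 77.3 and 60.9 CPM in KO (-0.10 ± 0.15). Abca1 and Abcg1 had opposite extremes in WT2, where Abca1 was lowest and Abcg1 highest. Nr1h3, LXR alpha, had 65.2, 75.1, 70.6 and 83.3 CPM in WT and 69.0, 56.2, 73.8 and 74.3 CPM in KO (-0.11 ± 0.13). Nr1h2, LXR beta, had 40.8, 66.4, 48.6 and 56.9 CPM in WT and 74.5, 52.1, 61.4 and 52.7 CPM in KO (0.18 ± 0.17), the highest log2 fold change of all members. KO1 was above every WT library and the other KO values lay inside the WT range.

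Of the genes that take up cholesterol, none separated the labels. Lrp1, a large endocytic receptor for remnant lipoproteins, had 798, 1079, 921 and 1011 CPM in WT and 944, 800.2, 1100 and 801 CPM in KO (-0.06 ± 0.15). Scarb1, the receptor for high-density lipoprotein, lay between 130 and 177 CPM in all 8 libraries (0.04 ± 0.12), with KO4 highest. Mylip, a ligase that LXR induces and that sends lipoprotein receptors to degradation, had 80.2, 64.0, 58.9 and 54.7 CPM in WT and 70.1, 73.3, 61.4 and 62.3 CPM in KO (0.05 ± 0.14). Each of the 3 ranged 1.36-fold to 1.47-fold over the libraries, and the WT and KO values overlapped.

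Npc2, a small lysosomal protein that hands cholesterol to NPC1, was the member with the smallest p. It had 604, 503, 634 and 459 CPM in WT1 to WT4 and 437, 392.2, 384 and 447 CPM in KO1 to KO4, or 550 ± 82.6 and 415 ± 31.7 CPM (SD, n = 4 each). Every KO library was below every WT library, with KO4 and WT4 close to each other. The log2 fold change was -0.41 ± 0.14, with an unadjusted p of 0.0116 and an adjusted p of 0.998 over all genes (edgeR quasi-likelihood), so it did not pass. It kept its sign with each library left out, from -0.49 to -0.33, and was -0.70 ± 0.19 with the muscle markers as a covariate. Groups that did not overlap were found for 2 of 31 members, Npc2 and Tm7sf2, and for 2.93% of the genes tested (1.39% lower in KO, as both members were). Macrophages are rich in lysosomes. Of 15 macrophage markers, all read in every library, 11 were negative and 4 positive, with a median log2 fold change of -0.08; their sums were 906 to 1253 CPM in WT and 947 to 1067 CPM in KO. Their part in the Npc2 value was not tested, and in whole tissue fewer cells of a type and less RNA per cell cannot be told apart.

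The lysosomal membrane transporter Npc1 did not go with Npc2. It had 40.8, 33.2, 40.1 and 39.1 CPM in WT and 41.6, 44.3, 31.1 and 31.5 CPM in KO (-0.05 ± 0.15), with KO libraries at both ends. Soat1, which esterifies cholesterol for storage, had 20.8, 10.3, 17.0 and 9.78 CPM in WT and 11.3, 11.9, 9.53 and 13.5 CPM in KO (-0.33 ± 0.25). WT1 and WT3 lay above the other libraries, on 26 to 57 reads. The log2 fold change was -0.10 without WT1, -0.48 without WT4 and -0.97 ± 0.33 with the muscle markers as a covariate. Stard4, a carrier of sterol between membranes and a target of SREBP2, was lowest in KO1 at 14.6 CPM and lay between 19.4 and 26.2 CPM elsewhere (-0.16 ± 0.18).

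The spread between mice of 1 label was measured for each gene as the pooled standard deviation of log2 CPM within a label, which does not use the difference between labels. Its median was 0.55 over the 16 enzymes, 0.22 over the 4 LXR and efflux genes, 0.19 over the 3 uptake genes and 0.25 over the 14556 genes tested. Of the enzymes, 9 of 16 lay in the top 10% of tested genes: Hmgcs1, Mvd, Idi1, Fdps, Sqle, Lss, Cyp51, Nsdhl and Hsd17b7. Of the other members 1 of 15 did, Insig1. The largest was Lss at 0.79, with 2.08% of tested genes above it, and among the enzymes the smallest were Ebp at 0.15 and Tm7sf2 at 0.16. These 2 were below the standard deviations that reads alone give at their mean counts, 0.19 for Ebp and 0.26 for Tm7sf2. Reads alone give a standard deviation of 0.11 for Lss, 0.04 for Insig1 and 0.27 for Mvd at their mean counts, so counting error is a larger share for Mvd. KO1 and KO4, the lowest and the highest library for the enzyme mean, both had high muscle sums and low liver sums. With the muscle markers as a covariate, the median log2 fold change of the enzymes was -0.47 in place of -0.21, and 10 of the 31 members turned sign. The muscle sums were high in every KO library but KO3 and low in all WT libraries. That fit therefore cannot well separate muscle from label, and the standard error of Lss rose from 0.54 to 0.81. The part of liver RNA in the member values was not tested.

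**Figure D3:**
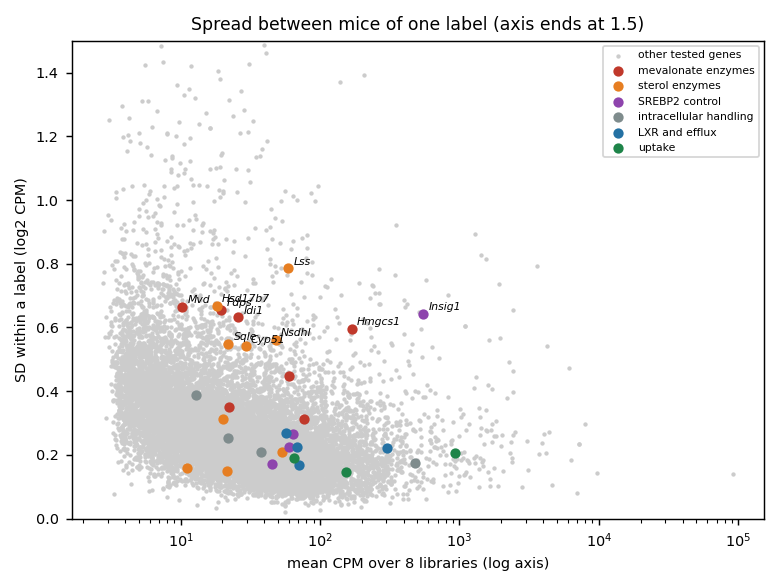
Pooled SD of log2 CPM within a label against mean CPM over the 8 libraries (log axis), with the members coloured by role over the other tested genes in grey; genes above 1.5 are not drawn. Lss, Insig1, Hmgcs1 and 7 other members stand above 0.5, and the LXR, efflux and uptake genes stand below 0.3.

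Between labels, 0 of 31 members passed at an adjusted p of 0.05, as did 0% of all genes tested, and the adjusted p of every member was 0.998 (edgeR quasi-likelihood). At an unadjusted p of 0.05 there was 1 member, Npc2, of 31, beside 4.48% of the genes tested (1.77% with lower values in KO). DESeq2 and edgeR's likelihood ratio test also called 0 members, while they called 0.301% and 0.234% of the genes they tested, and limma-voom called 0 members and 0% of genes. Of the 31, 0 were listed in the authors' deposited table at an adjusted p under 0.05, beside 2.42% of its genes. The smallest adjusted p of a member in the authors' deposited table was that of Idi1, with a log2 fold change of -0.63 and an adjusted p of 0.237. The median of the 16 enzymes moved with single mice. Without KO1 it turned to 0.02, with 9 of the 16 positive. Without WT3 it was -0.05, with 9 negative, and without KO4 it was -0.48, with 15 negative. On simulated counts with each gene's own fitted dispersion (14371 genes tested), the test recovered 70.1% of genes changed 2-fold and 10.4% of those changed 1.5-fold. The changed genes were drawn only from those above a floor of mean reads, so the rates do not cover tested genes with fewer reads. Recovery among the enzymes alone was not measured.

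**Figure D4:**
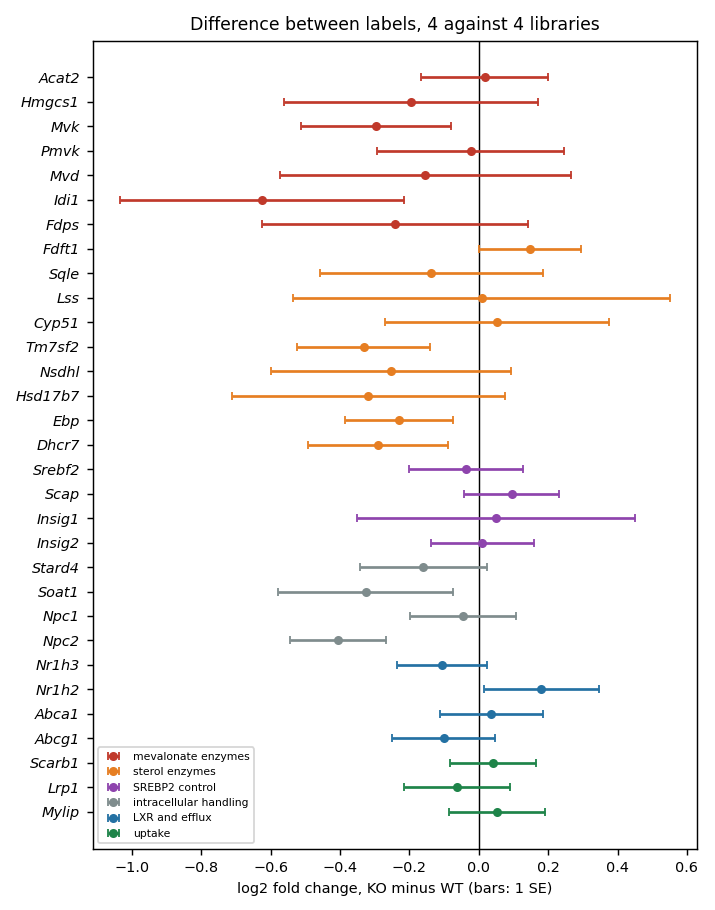
Log2 fold change of each member, KO minus WT, with bars of 1 standard error, coloured by role. Most enzymes lie left of 0 with long bars, Idi1 farthest at -0.62, and Npc2 stands at -0.41 with a short one.

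By length of transcript, Insig1 and Npc2 were the most abundant members, at 204 ± 84.8 and 146 ± 28.0 CPM per kilobase (SD, n = 8). Lrp1 and Scarb1 followed at 62.6 ± 8.38 and 60.5 ± 5.77 CPM per kilobase, which is within their spread. Among the enzymes Pmvk (50.0 ± 15.7) and Hmgcs1 (48.8 ± 16.9) were highest and Hsd17b7 (3.94 ± 1.68) lowest. The value of Hmgcs1 is that of 1 of its 2 identifiers, which hold about as many reads each, so its rank among the members is uncertain. Abca1 stood at 29.3 ± 3.95 and Abcg1 at 11.8 ± 1.82 CPM per kilobase, Nr1h3 at 36.3 ± 4.07 and Nr1h2 at 28.4 ± 5.31. The storage enzyme Soat1 was the least abundant member, at 1.55 ± 0.48 CPM per kilobase. Lengths are those of the longest protein-coding transcript in GENCODE M21, an annotation of another build than the counts, and are approximate.

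**Figure D5:**
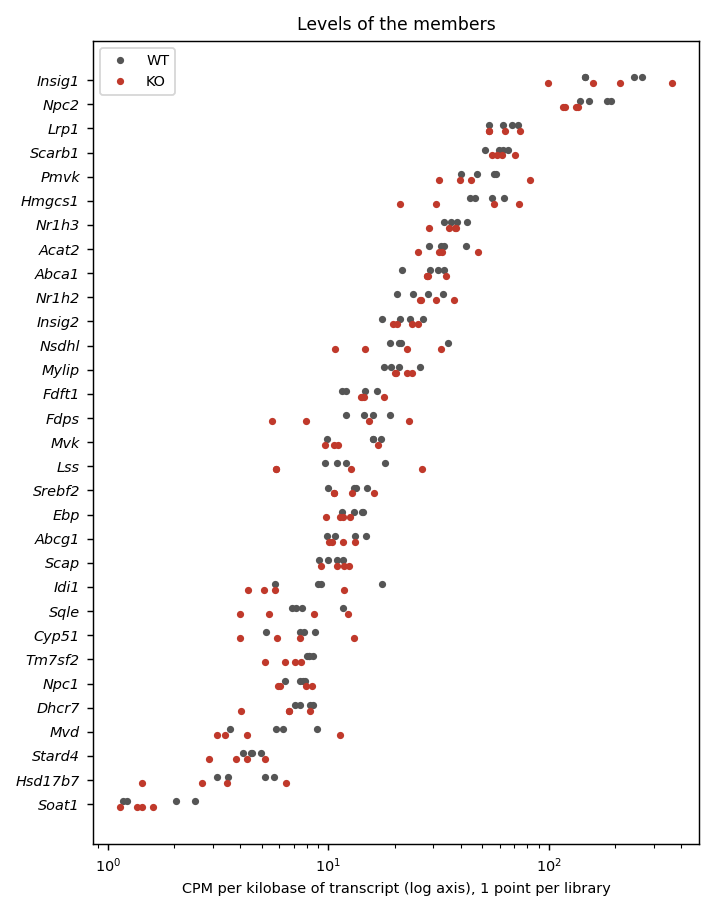
Level of each member in each library as CPM per kilobase of transcript (log axis), WT in grey and KO in red, ordered by the mean. Insig1 and Npc2 are at the top and Soat1 at the bottom, and the red points of Lss, Fdps and Insig1 spread wider than the grey ones.

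Further genes of the pathway were taken from lists. Of 15 further genes of cholesterol synthesis and SREBP control, 5 were positive and 10 negative, with a median log2 fold change of -0.03 and 0 passed. Of 20 tested genes of uptake, storage and transport, 6 were positive and 14 negative (median -0.04, 0 passed), with Lipa, the lysosomal acid lipase, at -0.26 ± 0.14. Of 16 further LXR targets, partners and efflux genes, 6 were positive and 10 negative (median -0.07, 0 passed), with Abca8a at 0.31 ± 0.14 and Apoc1 at -0.44 ± 0.23. KO1 was the lowest library for 4 of the 15, 2 of the 20 and 1 of the 16 genes of these 3 lists, beside 13.6% of all genes tested. KO4 was the highest for 1 of the 15, 1 of the 20 and 3 of the 16, beside 12% of all genes tested.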

How the data were processed

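Poly(A) RNA of subcutaneous fat was sequenced from an unstranded kit, per the labels' protocols. FastQC, Bowtie2, edgeR and the build mm9 are named in the submitters' processing notes, and no source used here names the counter or annotation. Raw gene counts were deposited by the authors, with a table of log2 fold changes and p-values. Each library held between 2617755 and 2873457 reads, and no 2 libraries of a label agreed within sampling noise (smallest chi-square per gene 4.45).

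Columns were matched to samples by mouse label and groups taken from titles. Counts were fitted over all 14556 genes that passed filterByExpr with edgeR 4.0.16 (R 4.3.3; TMM, robust quasi-likelihood F test, label as the only term, Benjamini-Hochberg at 0.05). Each SE is the absolute log2 fold change divided by the square root of F. Means over genes used log2 CPM with a prior count of 2. The p-values set the difference between labels against the spread between these mice within a label. A symbol on several identifiers went to the one with most reads. The test was tested on simulated data (7 false calls).

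Members and lists were chosen with earlier results of these data known. Every member is named; values by library are given for the 8 with the smallest p, Srebf2, Insig1, Abca1, Abcg1 and the extremes of each role, and for others chosen after their values were seen. From other lists up to 3 genes with the smallest p are named, a few of which are not printed here. Alternatives were other scalings, no filter, DESeq2 1.42.0, limma-voom 3.58.1, a likelihood ratio test, a replicate block, a muscle covariate and each library left out. Marker lists for endothelium, fibroblasts and lymphoid cells (medians -0.12, 0.10 and -0.43) enter no result.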

Additional observations from a re-analysis of the deposited data

Results flagged for a closer look

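Among the 62 sets of 4 values (31 members in each label), 5 held 1 library far from the other 3 of its label, by Dixon's test at the 95% level; chance gives about 1 in 20. Mvd stood at 19.8 CPM in KO4, above the other KO libraries. Fdft1 stood at 66.5 CPM in KO1, above the other KO libraries. Sqle and Nsdhl stood at 32.3 and 75.9 CPM in WT3, above the other WT libraries. Abca1 stood at 351 CPM in KO2, above the other KO libraries. Mvd, Sqle, Nsdhl and Fdft1 are synthesis enzymes. Mvd, Sqle and Nsdhl stood out in KO4 or WT3, the 2 libraries with the highest enzyme mean. Fdft1 went the other way, high in KO1, the library with the lowest enzyme mean.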

How the results depend on the processing

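No member passed under any of the 16 alternatives. Over all genes the count of 0 became 51 with DESeq2 (45 higher, 6 lower), 34 with the likelihood ratio test, and between 0 and 50 with 1 library left out (50 without KO3). Of the 31 members, 13 kept their sign under every alternative, among them Npc2, Idi1, Mvk, Tm7sf2, Ebp and Dhcr7, and 18 turned at least once. With skeletal muscle markers as a covariate, 10 turned: Acat2 to -0.16, Lss to -1, Cyp51 to -0.38, Srebf2 to 0.37, Insig1 to -0.2, Nr1h3 to 0.066, Abca1 to -0.072, Abcg1 to 0.24, Lrp1 to 0.24 and Mylip to -0.15. With limma-voom, Lss, Cyp51, Insig1 and Insig2 turned to -0.21, -0.041, -0.089 and -0.012, and with upper-quartile scaling Lss to -0.0068. With the replicate block, Acat2, Lss, Cyp51 and Insig1 turned to -0.0061, -0.21, -0.033 and -0.05, and the block changed no call; same-numbered libraries deviated with correlations of -0.29 to -0.14, none correlated best with its own number, and the numbers were not taken as pairs. The causes were not tested. With 1 library left out, the ranges of the members that turned were -0.18 to 0.14 for Acat2, -0.52 to 0.04 for Hmgcs1, -0.38 to 0.14 for Pmvk, -0.76 to 0.083 for Mvd, -0.68 to 0.0089 for Fdps, -0.47 to 0.075 for Sqle, -0.64 to 0.25 for Lss, -0.34 to 0.26 for Cyp51, -0.18 to 0.048 for Srebf2, -0.36 to 0.28 for Insig1, -0.089 to 0.11 for Insig2, -0.14 to 0.031 for Npc1, -0.08 to 0.12 for Abca1, -0.19 to 0.0078 for Abcg1, -0.028 to 0.089 for Scarb1, -0.17 to 0.0019 for Lrp1 and -0.022 to 0.17 for Mylip. The difference of the enzyme mean was -0.25 and lay between -0.49 (without KO4) and -0.075 (without KO1). That of the LXR mean was -0.022, and -0.09 with the median of the members in place of the mean. Among others, Mvd, Hsd17b7, Tm7sf2 and Soat1 rest on under 100 reads in each library.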

Other observations

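Several genes of fatty acid synthesis had their lowest value in KO1 and their highest in KO4, as many of the cholesterol enzymes had. KO1 was the lowest library for 8 of 16 such genes and KO4 the highest for 7 of 16, beside 13.6% and 12% of all genes tested. Fasn, the fatty acid synthase, had 2509, 2708, 5323 and 3974 CPM in WT1 to WT4 and 1456, 4365, 1926 and 6445 CPM in KO1 to KO4. Acly, which makes cytosolic acetyl-CoA for both pathways, had 218, 221, 373 and 265 CPM in WT and 107, 283, 178 and 489 CPM in KO. Acss2, which makes acetyl-CoA from acetate, had 207, 306, 438 and 352 CPM in WT and 144, 377, 224 and 700.1 CPM in KO. These genes and Scd1 were named after their values were seen. Scd1, the stearoyl-CoA desaturase of the same list, had a log2 fold change of -0.01 ± 0.16 and lay between 76180 CPM (WT1) and 103100 CPM (WT4). Over the 16 genes, 7 were positive and 9 negative between labels, with a median log2 fold change of -0.02 and 0 past the threshold; Mlxipl, which encodes the sugar-responsive factor ChREBP, had 0.38 ± 0.17, Fads2 -0.74 ± 0.38 and Acaca 0.31 ± 0.20.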
